A study of Mus musculus with 43 samples.

Results

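Kinesins are motor proteins that use ATP to move along microtubules or to take microtubules apart, and 38 genes of this family were examined in fetal liver for binding of EKLF, the erythroid zinc-finger transcription factor encoded by Klf1. The members are the protein-coding genes of the mm10 RefSeq gene table whose symbol is Kif followed by a number and an optional letter, 38 of 21523 genes. They were divided by function into 12 mitotic kinesins, 13 transport kinesins and 13 others that act mostly at cilia, at centrioles or on microtubule growth. The rule uses gene symbols and the roles use known functions.

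EKLF was immunoprecipitated with the 7B2a antibody from livers of E13.5 mouse embryos and the DNA was sequenced (ChIP-seq). WT embryos of the Nan strain were compared with Nan/+ littermates, which carry 1 copy of the Nan allele of Klf1, a change in a zinc finger of EKLF. The whole dispersed liver was used, with no sorting step in the protocol read here, although the label calls the cells primary erythroid. Each genotype has 1 list of called regions, made by the authors from 3 ChIP libraries of 72023512 to 103170594 tags against 2 distinct input libraries, per the file headers. All 8 erythroid marker genes examined, among them Slc4a1, Epor and Klf1 itself, had a region in both lists. In WT so did 2 of 5 hepatoblast, 1 of 4 macrophage and 0 of 4 endothelial markers. At the rates of protein-coding genes of like length, the WT counts would be 2.86 erythroid, 1.80 hepatoblast, 1.41 macrophage and 1.57 endothelial. In Nan/+ the hepatoblast, macrophage and endothelial counts were 2, 1 and 1, against 1.90, 1.71 and 2.02 by length. Of 4 megakaryocyte markers 1 had a WT region and 3 a Nan/+ region, against 1.16 and 1.09. Region counts measure no expression. The lists give positions but no strength per region, and nothing per replicate, so no difference between the genotypes could be tested and every comparison here is a description of 2 lists. Weaker binding and fewer cells with binding cannot be told apart in such material, and a region missing from a list may lie just under its calling threshold.

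A dividing erythroblast needs kinesins at every stage of mitosis. Some push the spindle poles apart, some carry chromosomes to the middle of the spindle, and some build the midzone from which the cell is cleaved. Inherited mutation of human KIF23 causes a dyserythropoietic anaemia with multinucleate erythroblasts, and KLF1 is itself a dyserythropoietic anaemia gene. Transport kinesins carry vesicles, organelles and ciliary components and were first described mainly in nerve cells. Late cell cycle genes commonly carry the cell cycle genes homology region (CHR), with the core TTTGAA, and CCAAT boxes, bound by NF-Y, near their starts. EKLF recognises CACCC-type sites, written here as CCNCNCCC.

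A region was assigned to a gene when the region's centre fell inside the gene record or no more than 10 kb outside it. By that rule 19 of the 38 kinesin genes had a WT region, against 33.5% of all protein-coding genes, and 24 had a Nan/+ region, against 37.5% of all. Regions in both lists were found at 16 (23.5% of all genes), in WT alone at 3 (10.1%), in Nan/+ alone at 8 (14.1%) and in neither at 11 (52.4%). Kinesin genes are long, with a median of 47.5 kb. Over 10 strata of gene length the mean number of Nan/+ regions rose throughout. The share of genes with a WT region rose to 42.8% in genes of 58 to 109.7 kb and was 32.8% in the longest stratum. Among genes of the same 10 length strata the shares were 38.6% in WT and 47.7% in Nan/+, so that 14.7 and 18.1 of 38 genes would have a region at those rates, beside the 19 and 24 found. The counts for WT alone and Nan/+ alone, 3 and 8, stood near the 3.57 and 7.04 of genes of like length.

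**Figure D1:**
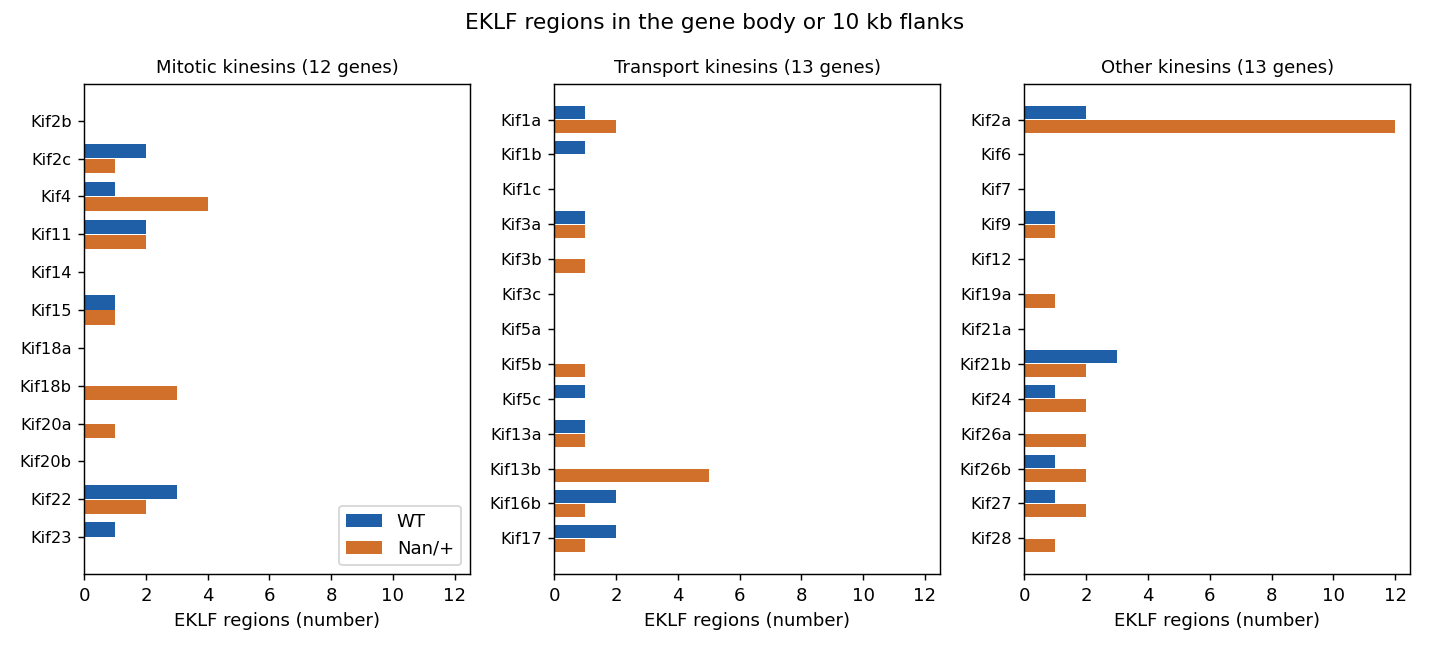
Number of EKLF regions (horizontal axis) in the body or 10 kb flanks of each of the 38 kinesin genes, in WT (blue) and Nan/+ (orange), by role. Kif2a, with 2 WT and 12 Nan/+ regions, holds the most; 11 genes have none.

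By role, the counts differed from the rates of genes of like length by 3 genes or fewer in each list. Of the mitotic genes 6 of 12 had a WT region and 7 of 12 a Nan/+ region, against 39.0% and 44.3% of genes of like length. Of the transport genes the counts were 7 of 13 and 8 of 13, against 37.8% and 49.9%, and of the others 6 of 13 and 9 of 13, against 38.9% and 48.6%. Those rates correspond to 4.68 and 5.32 mitotic, 4.92 and 6.49 transport and 5.06 and 6.32 other genes. With Nan/+ regions wider than the minimum alone, 4 mitotic, 3 transport and 5 other genes had one, against 25.1% of all genes. In WT 4 of 11 mitotic genes had a region within 1 kb of an annotated start, beside 3 of 10 transport genes and 2 of 10 others, the denominators being the 31 members whose start is in the promoter table. In Nan/+ 1 gene of each role had one, Kif11, Kif13a and Kif2a. Over all protein-coding genes with a listed start the share was 22.4% in WT and 16.4% in Nan/+. Within 1 kb of either end of the gene record, which needs no listed start, 9 of the 38 members had a WT region (21.3% of all genes) and 7 a Nan/+ region (16.3%). Only 2 of the 10 WT regions of mitotic genes lay inside the gene, against 6 of 9 at transport genes and 47.4% of assigned WT regions over all genes. Of the Nan/+ regions 9 of 14 lay inside mitotic genes, 11 of 13 inside transport genes and 18 of 25 inside the others, against 61.0% over all genes.

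**Figure D2:**
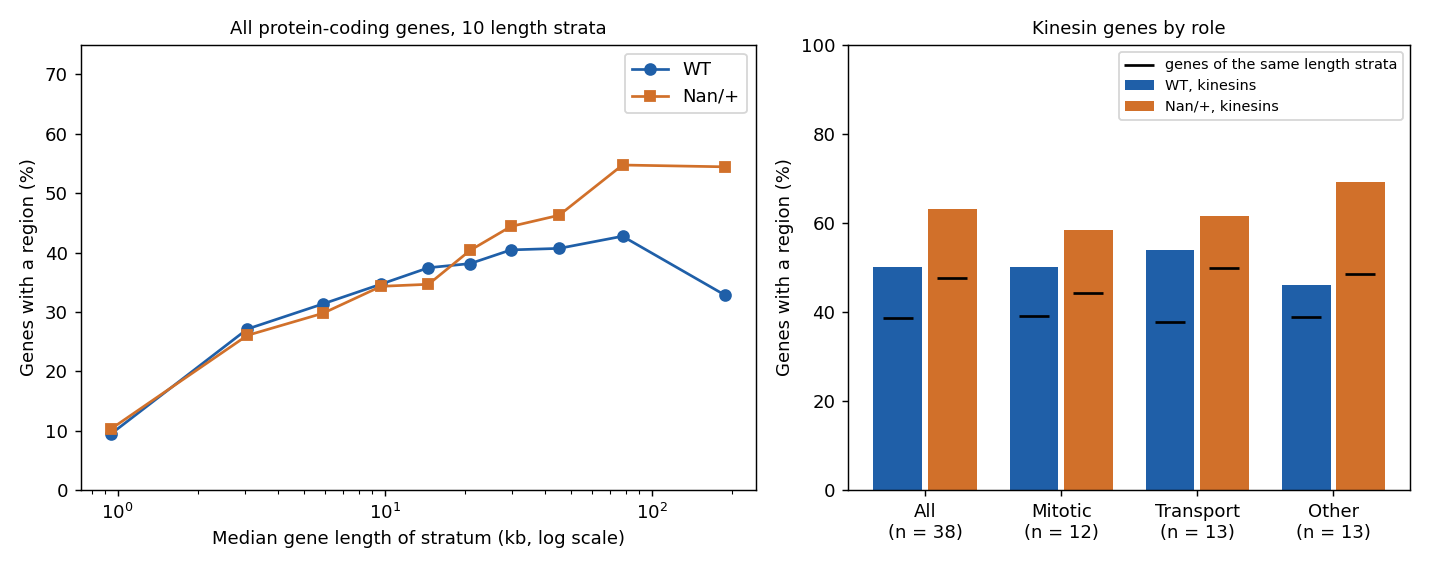
Left, percentage of all protein-coding genes with an EKLF region (vertical axis) in 10 strata of gene length (median length in kb, log scale), in WT (blue) and Nan/+ (orange). Right, the same percentage for kinesin genes by role, with black marks for genes of the same length strata; each bar lies above its mark, with no test because each genotype has 1 list.

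Among the mitotic kinesins, Kif11 had regions of both genotypes over its start. Kif11 encodes the motor that slides antiparallel microtubules apart and so separates the spindle poles. Its gene lies on chromosome 19 (37376382 to 37421863, 45.5 kb). A WT region of 873 bp (37375624 to 37376496) contained all 338 bp of the Nan/+ region (37376055 to 37376392). A further WT region of 378 bp lay just upstream, and a further Nan/+ region of the minimum width, 176 bp, was centred 25482 bp into the gene, and neither had a counterpart.

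At Kif22, Kif4 and Kif23 only the WT list had a region at the start. Kif22 encodes a chromokinesin that pushes chromosome arms from the poles, Kif4 a chromokinesin that also shapes the midzone with Prc1, and Kif23 a subunit of centralspindlin, the complex that organises the cleavage furrow. The Kif22 region (chromosome 7, 127042129 to 127042498) measured 370 bp, and the Kif4 region (chromosome X, 100625855 to 100626043) 189 bp. The Kif23 region (chromosome 9, 61945798 to 61946248) measured 451 bp and was centred 776 bp into the gene, and Kif23 had no Nan/+ region. Kif4 also had 4 Nan/+ regions from 6263 to 45607 bp into its body, 3 of them at the minimum width. Of the 2152 genes of its length stratum 287, or 13.3%, had at least 4 Nan/+ regions. At Kif22 both lists shared 2 regions at the opposite end of the gene, the wider of 1035 bp in WT and 1039 bp in Nan/+, but these also fall within reach of Maz, Prrt2 and, for 3 of the 4 records, Pagr1a. The Kif4 start region is likewise within 10 kb of Arr3 and Pdzd11, and the Kif23 region within 10 kb of Paqr5. The start region of Kif22 is also within 10 kb of Zg16.

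The promoters of Kif11, Kif22 and Kif4, the mitotic ones that a WT region overlapped, are shown because they carry the cell cycle elements and not the EKLF consensus. The Kif23 region lies past its promoter window, which holds the EKLF consensus and both cell cycle elements. The sequences come from RefSeq on GRCm38.p6, which mm10 represents, and run from 250 bases before to 50 after the start, 5′ to 3′ on the gene's strand. The start base is position 0, a match is placed by its first base in the printed direction, and TTTGAA and CCAAT matches on either strand are in capitals.
Kif11 (chr19:37376132-37376431, plus strand): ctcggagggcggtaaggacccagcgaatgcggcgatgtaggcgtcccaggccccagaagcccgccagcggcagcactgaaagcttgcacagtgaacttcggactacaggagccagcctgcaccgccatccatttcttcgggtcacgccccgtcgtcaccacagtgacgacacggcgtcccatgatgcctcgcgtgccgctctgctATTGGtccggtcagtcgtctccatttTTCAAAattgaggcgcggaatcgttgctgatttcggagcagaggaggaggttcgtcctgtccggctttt
Kif22 (chr7:127042371-127042670, minus strand): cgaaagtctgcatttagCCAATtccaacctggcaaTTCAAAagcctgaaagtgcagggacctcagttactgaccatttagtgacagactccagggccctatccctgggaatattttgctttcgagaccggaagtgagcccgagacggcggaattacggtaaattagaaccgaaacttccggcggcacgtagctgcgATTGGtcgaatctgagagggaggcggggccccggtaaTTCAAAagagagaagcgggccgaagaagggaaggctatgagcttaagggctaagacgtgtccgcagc
Kif4 (chrX:100625815-100626114, plus strand): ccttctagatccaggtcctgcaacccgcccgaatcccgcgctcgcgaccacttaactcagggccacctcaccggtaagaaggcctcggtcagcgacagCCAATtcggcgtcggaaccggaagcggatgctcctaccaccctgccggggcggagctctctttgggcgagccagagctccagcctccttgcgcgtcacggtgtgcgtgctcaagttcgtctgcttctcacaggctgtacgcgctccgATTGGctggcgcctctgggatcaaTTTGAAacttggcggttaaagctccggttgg
Each of these 3 promoters holds TTTGAA and CCAAT, and 0 of them hold CCNCNCCC. The promoters of Kif14 and Kif18b, which no region overlapped, have the same combination. It was found in 5 of 11 mitotic promoters, 4.09% of all promoters and 2.10% of those overlapped by a WT region. In Kif11 the CCAAT match is at -45 and the TTTGAA match at -19, and both lie inside the WT and the Nan/+ region. In Kif22 the CCAAT match at -54 and the TTTGAA match at -17 lie inside the WT region, and a farther pair, at -233 and -215, does not. In Kif4 the CCAAT match at -152 lies inside the WT region, while the CCAAT match at -5 and the TTTGAA match at 19 do not. Kif11 alone of the 3 holds CCNNGCCC, a looser GC-rich pattern that overlaps the EKLF consensus. These are matches of letters within 300 bases, and no sequence outside that window was read.

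The remaining mitotic genes had no region within 1 kb of a listed start, and for Kif20a no start is listed. Kif18b, whose motor trims astral microtubules, had 3 Nan/+ regions and 0 in WT, all at the minimum width and 10995 to 24221 bp from the start. Of the 2152 genes of its length stratum 129, or 5.99%, had at least 3 Nan/+ regions. Kif20a, which brings the chromosomal passenger complex to the midzone, had 1 Nan/+ region of 176 bp inside the gene, 263 bp from an end, and 0 in WT. Kif15, which backs up Kif11 on the spindle, had 1 region in each list, and their centres were 44.3 kb apart. Kif2c, a kinetochore microtubule depolymerase, had 2 WT and 1 Nan/+ regions, all in the flanks, the closest pair of centres 1.56 kb apart. Kif14, Kif18a, Kif20b and Kif2b had 0 in both lists.

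Transport kinesins had regions of both genotypes at 5 of 13 genes, Kif1a, Kif3a, Kif13a, Kif16b and Kif17, and not at the same positions. Of the 9 WT regions of all transport genes 0 overlapped a Nan/+ region, against 27.6% of the WT regions assigned to all genes. Of the 13 Nan/+ regions 0 overlapped a WT region, against 20.2% over all genes. Dividing 3 by the number of regions gives rough upper limits of 33.3% and 23.1%, which treat regions of a gene as independent. With so few regions a lower share than elsewhere could not be told from an equal one, and the difference was not tested. At Kif3a, a subunit of the heterotrimeric kinesin that builds cilia, the WT region of 353 bp (chromosome 11, 53567119 to 53567471) lay over the start, and the Nan/+ region of 176 bp was centred 16993 bp into the gene. At Kif16b, which moves early endosomes, a WT region of 485 bp (chromosome 2, 142901221 to 142901705) was centred 1 bp from the start and another of 293 bp at -1587, and the Nan/+ region of 176 bp lay 190.22 kb away. At Kif17, a homodimeric kinesin of dendrites and cilia, a WT region of 449 bp (chromosome 4, 138262177 to 138262625) lay at the start, and the Nan/+ region, 225 bp wide, was centred 22566 bp into the gene.

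Kif13a showed the opposite arrangement. Its product carries endosomal membranes, and it was the transport gene with a Nan/+ region at a listed start. That region measured 616 bp (chromosome 13, 46929927 to 46930542) and was centred at -517, whereas the WT region of 401 bp lay 6468 bp beyond the other end of the gene. The promoters of Kif3a and Kif16b, covered in WT alone, and of Kif13a, covered in Nan/+ alone, are shown for contrast with the mitotic promoters, with CCNCNCCC matches on either strand in capitals.
Kif3a (chr11:53567119-53567418, plus strand): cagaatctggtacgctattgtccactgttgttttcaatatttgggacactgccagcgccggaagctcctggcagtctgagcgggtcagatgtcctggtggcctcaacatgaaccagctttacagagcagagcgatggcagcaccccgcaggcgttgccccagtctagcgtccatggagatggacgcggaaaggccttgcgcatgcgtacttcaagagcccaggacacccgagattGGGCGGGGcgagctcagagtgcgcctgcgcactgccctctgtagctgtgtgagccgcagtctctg
Kif16b (chr2:142901415-142901714, minus strand): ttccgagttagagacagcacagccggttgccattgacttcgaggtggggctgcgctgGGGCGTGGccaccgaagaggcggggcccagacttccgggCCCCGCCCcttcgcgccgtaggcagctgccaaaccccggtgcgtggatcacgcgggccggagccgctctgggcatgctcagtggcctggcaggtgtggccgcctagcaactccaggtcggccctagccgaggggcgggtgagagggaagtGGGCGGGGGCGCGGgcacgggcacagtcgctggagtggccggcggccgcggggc
Kif13a (chr13:46929669-46929968, minus strand): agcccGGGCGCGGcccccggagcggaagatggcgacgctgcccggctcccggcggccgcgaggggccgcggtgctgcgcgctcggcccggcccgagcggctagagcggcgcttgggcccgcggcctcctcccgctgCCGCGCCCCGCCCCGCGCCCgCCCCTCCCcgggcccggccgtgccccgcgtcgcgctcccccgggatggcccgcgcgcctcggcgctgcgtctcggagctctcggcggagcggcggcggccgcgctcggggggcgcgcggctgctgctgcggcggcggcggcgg
Kif3a holds 1 match, at -15, and Kif16b holds 4, at -193, -154, -4 and 2, all inside the WT regions. Kif13a holds 5, and just 1 of them, at -245, lies in the Nan/+ region, which reaches only 42 of the 300 bases.

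The remaining transport genes had regions in 1 list or in none. Kif13b, a relative of Kif13a, had 5 Nan/+ regions and 0 in WT. Of the 5, 4 lay inside the gene of 157.1 kb and were 176 bp wide, and 1 of 278 bp lay beyond an end, also within 10 kb of Hmbox1. Its length stratum averaged 2.14 Nan/+ regions, and 284 of 2153 genes of that stratum, or 13.2%, had at least 5. Kif3b, the partner of Kif3a, had 1 Nan/+ region 2148 bp past the start, and Kif5b, a conventional kinesin heavy chain, had 1 inside the gene 792 bp from an end, both 176 bp wide and with 0 in WT. Kif1b and Kif5c had 1 WT region each and 0 in Nan/+, of 219 and 248 bp, 44724 and 44286 bp from the nearer gene end. Kif1a, which carries synaptic vesicle precursors, had 1 WT and 2 Nan/+ regions inside the gene, with the closest centres 15.06 kb apart. Kif1c, Kif3c and Kif5a had 0 in both lists.

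**Figure D3:**
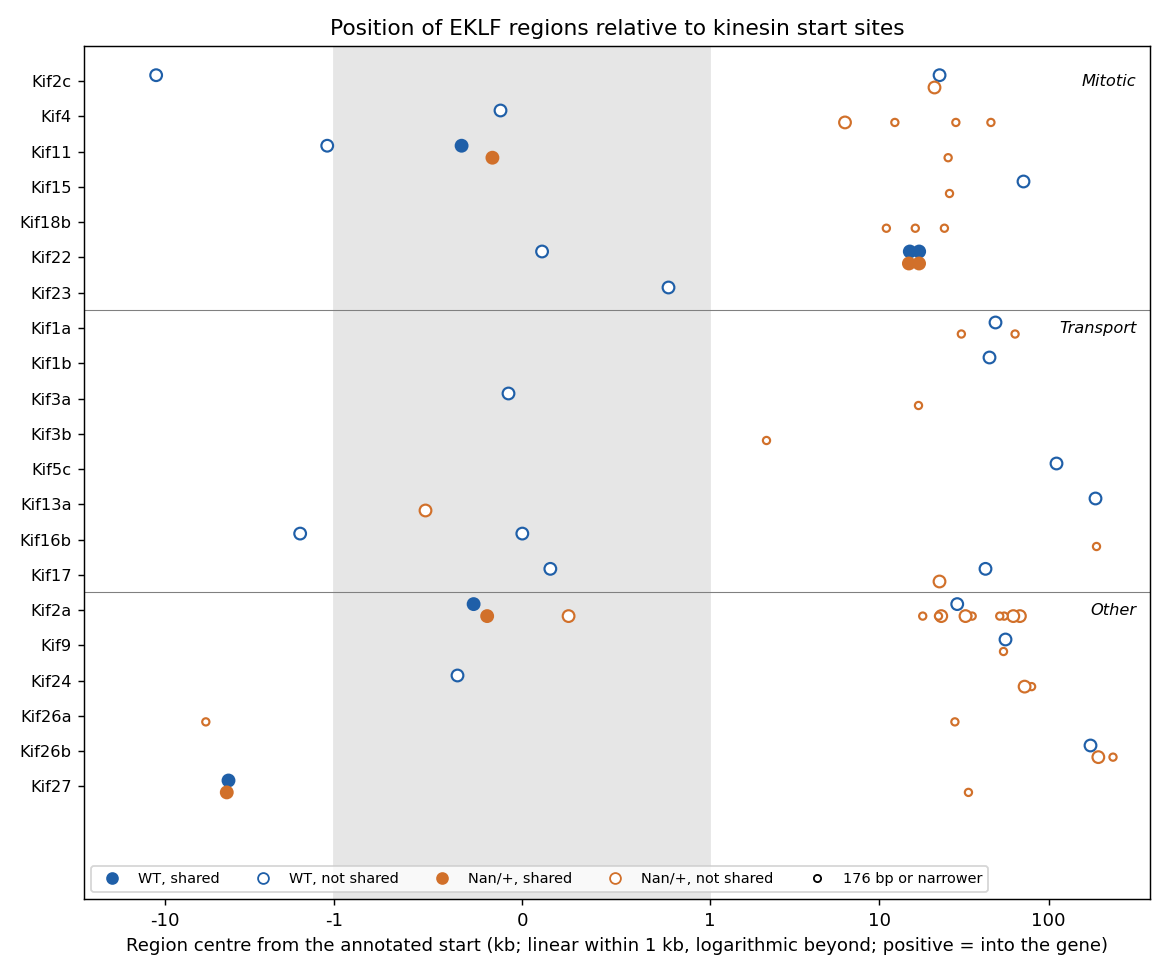
Distance of each region's centre from the nearest annotated start (horizontal axis, kb, linear within 1 kb and logarithmic beyond) for the kinesin genes with a region and a listed start; filled circles overlap the other list, small circles are at most 176 bp wide and the grey band is 1 kb either side of the start. WT regions fall in the band at 9 genes and Nan/+ regions at 3.

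The gene with most regions was Kif2a, which encodes a microtubule depolymerase that works at spindle poles and in neurites and is grouped here with the others. Kif2a (chromosome 13, 106958996 to 107022355, 63.4 kb) had 2 WT and 12 Nan/+ regions. In its length stratum, genes of 58 to 109.7 kb, the mean was 0.841 WT and 1.55 Nan/+ regions. Of the 2152 genes of that stratum 25, or 1.16%, had at least 12 Nan/+ regions, and 17, or 0.79%, had a Nan/+ excess of at least 10. Over all protein-coding genes the shares were 0.497% and 0.372%. Kif2a was singled out after its values were seen. The lists shared the start, where a WT region of 565 bp (107022331 to 107022895) contained a Nan/+ region of 255 bp (107022414 to 107022668). A second Nan/+ region of 466 bp, the widest of the 12, lay 247 bp past the start without a counterpart. The other 10 Nan/+ regions were spread from 18033 to 67660 bp from the start, and 6 of the 12 were 176 bp wide. The WT list had 1 further region of 594 bp in the gene, 28839 bp from the start, and the nearest Nan/+ centre was 3429 bp away. At 4 of the 12 Nan/+ regions the neighbouring gene Dimt1 was also within 10 kb.

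Kif2a has 2 overlapping promoters in the table, and both are shown because the region shared by the lists covers them unequally, with CCNCNCCC matches in capitals.
Kif2a (chr13:107022306-107022605, minus strand): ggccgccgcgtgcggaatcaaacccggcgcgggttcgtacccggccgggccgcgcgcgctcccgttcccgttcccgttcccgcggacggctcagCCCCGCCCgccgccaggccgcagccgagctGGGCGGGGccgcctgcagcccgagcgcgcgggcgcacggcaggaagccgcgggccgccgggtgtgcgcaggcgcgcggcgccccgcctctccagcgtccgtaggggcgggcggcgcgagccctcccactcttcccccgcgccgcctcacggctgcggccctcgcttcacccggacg
Kif2a (chr13:107022065-107022364, minus strand): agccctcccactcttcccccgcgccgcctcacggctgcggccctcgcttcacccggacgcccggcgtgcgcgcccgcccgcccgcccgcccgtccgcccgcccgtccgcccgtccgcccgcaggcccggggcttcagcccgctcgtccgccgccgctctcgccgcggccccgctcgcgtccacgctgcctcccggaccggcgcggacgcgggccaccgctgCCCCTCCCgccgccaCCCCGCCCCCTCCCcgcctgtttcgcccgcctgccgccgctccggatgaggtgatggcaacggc
Of the upstream promoter, the first shown, 275 of 300 bases lie in the WT and 192 in Nan/+ regions. It holds 2 matches, at -156 and -126, and both lie inside a WT and a Nan/+ region. Of the downstream promoter 34 bases lie in the WT and 35 in Nan/+ regions. It holds 4 matches, at -29, -14, -12 and -8, and 0 of them lie in a region of either list.

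**Figure D4:**
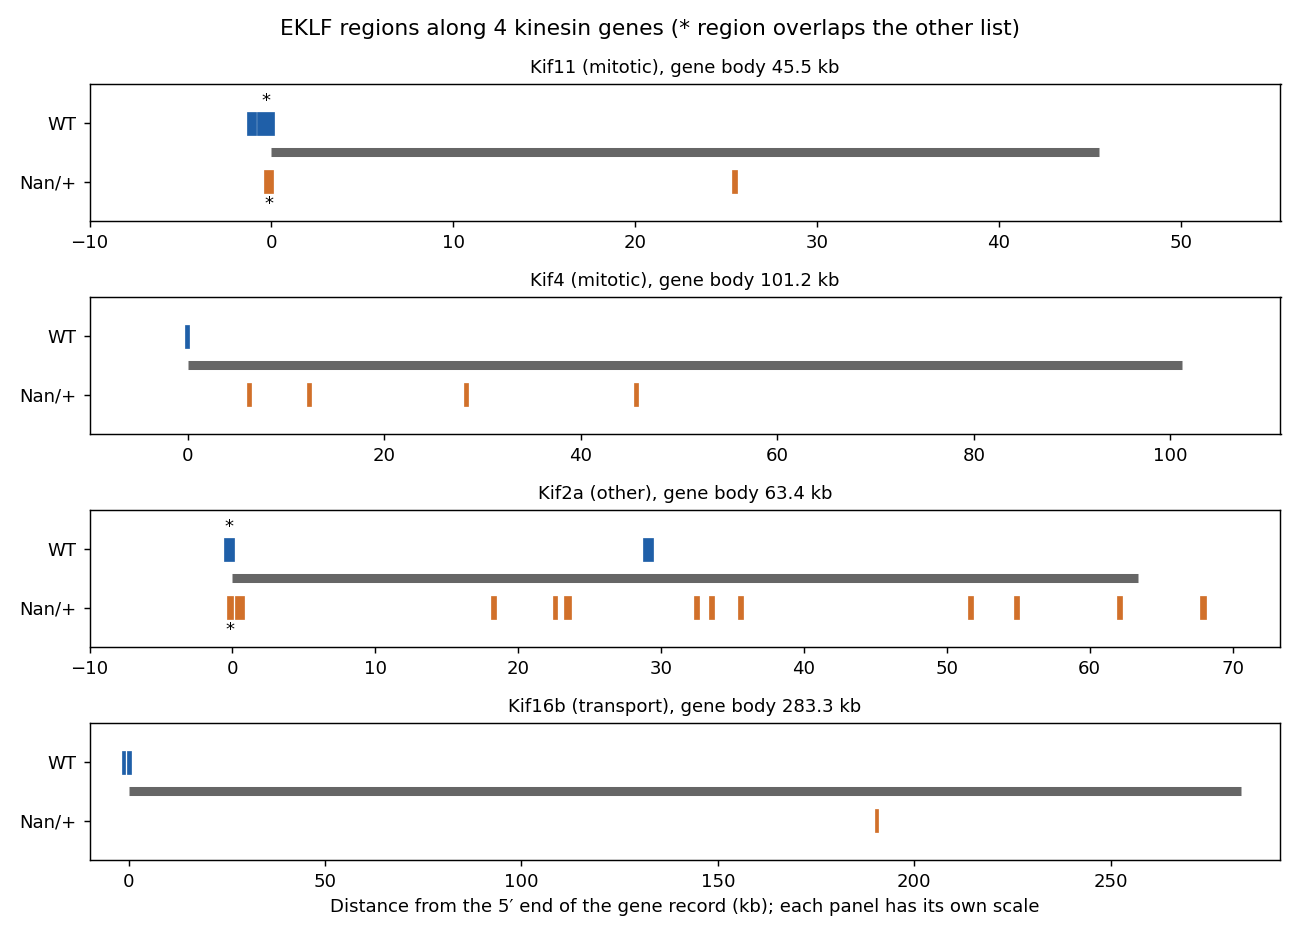
EKLF regions along Kif11, Kif4, Kif2a and Kif16b (grey bar, gene body; horizontal axis, kb from the 5′ end of the gene record, a separate scale for each gene), WT above in blue and Nan/+ below in orange, with asterisks on regions that overlap the other list. Kif11 and Kif2a share their start regions, whereas at Kif4 and Kif16b a WT region lies at the start, with a second at -1587 bp in Kif16b, and the Nan/+ regions lie inside the gene.

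Other kinesins of cilia, centrioles and microtubule growth gave smaller numbers. Kif21b, which restrains microtubule growth, had 3 WT and 2 Nan/+ regions and shared 1 at the lower-coordinate end of the gene, 208 bp in WT and 288 bp in Nan/+ (chromosome 1, 136131203 to 136131410 in WT). Kif27, a relative of the Hedgehog pathway kinesin Kif7, had 1 WT and 2 Nan/+ regions and shared 1. Its WT centre was at -4217 from the listed start, which itself lies within the gene record. The shared region is therefore inside the gene, with the WT centre 5581 bp from the nearer gene end. Kif24, a centriolar depolymerase, had a WT region of 1031 bp over its start, within 10 kb of Nudt2, and 2 Nan/+ regions near the far end, within 10 kb of Ubap1. Kif26b had 1 WT and 2 Nan/+ regions deep in its 403.7 kb, at different positions. Kif9, a kinesin of motile cilia, had 1 WT region of 1106 bp and 1 Nan/+ region in the flank towards Setd2. Kif19a, Kif26a and Kif28 had 1, 2 and 1 Nan/+ regions, all 176 bp wide, and 0 in WT. Kif6, Kif7, Kif12 and Kif21a had 0 in both lists.

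Put together, kinesin genes held 28 WT and 52 Nan/+ regions, or 1.86 Nan/+ regions per WT region. Regions assigned to all protein-coding genes in the same way gave 1.39, and genes of the same length strata 1.74. Kif2a alone gave 12 of the 52, and without it the figures were 26 and 40, or 1.54, above the first of these and below the second. At kinesin genes 34 of the 52, or 65.4%, were of the narrowest width, against 49.2% of assigned regions over all genes and 52.6% in the same length strata. Counting wider Nan/+ regions alone left 18, or 0.643 per WT region, against 0.706 over all genes and 0.822 in the length strata, and then 12 members rather than 24 had a Nan/+ region (25.1% of all genes). With those, 8 members had a region in WT alone (15.4% of all genes) and 1, Kif13b, in Nan/+ alone (6.98%). Of the 16 genes with regions in both lists, 5 had an overlapping pair, Kif11, Kif22, Kif2a, Kif21b and Kif27, whereas 56.7% of all 5048 such protein-coding genes had one, a difference that was not tested. At the other 11 the closest WT and Nan/+ centres were 1.56 to 190.22 kb apart, with a median of 19.8 kb.

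Among members with a listed start, the 9 WT regions within 1 kb of it were 189 to 1031 bp wide, and the WT regions farther away had a median of 389.5 bp. The 4 Nan/+ regions at these starts, 2 of them at Kif2a, were 255 to 616 bp wide. Of the 4, 0 had the minimum width, against 25 of the 37 Nan/+ regions farther away. Kif20a and Kif5b, with no listed start, each had a Nan/+ region of the minimum width within 1 kb of a gene end. The count of 0 therefore holds for the listed starts alone, and the same contrast was not counted over all genes. Of the 9 WT start regions 2 were shared, at Kif11 and Kif2a, beside 24.5% of all regions in the WT list. The 7 without a counterpart lay at Kif22, Kif23, Kif4, Kif3a, Kif16b, Kif17 and Kif24. Over all protein-coding genes, 2507 of the 3996 promoters overlapped by a WT region were overlapped in WT alone. The authors called the lists with different size settings, stated with the processing below, so widths are given within a list only. The minimum width of 176 bp in Nan/+ lay just above the size setting of that list, and the WT minimum likewise lay just above its own. The minimum width therefore follows the calling setting.

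Promoter sequence differed between the roles. The promoter table held 35 promoters of 31 members, and Kif5a, Kif5b, Kif13b, Kif19a, Kif20a, Kif21b and Kif28 have no entry. TTTGAA, on either strand, was present in 9 of 11 mitotic promoters, 1 of 12 transport promoters and 2 of 12 others, against 15.6% of 21045 protein-coding promoters of the same length. Within 50 bases of the start, a window chosen after the matches were seen, the counts were 7 of 11, 1 of 12 and 1 of 12, against 3.83%. CCAAT was present in 7 of 11 mitotic, 4 of 12 transport and 4 of 12 other promoters, against 38.5%. TTTGAA and CCAAT occurred together in 6 of 11 mitotic and 0 of 12 transport promoters, against 6.42%. Kif1a and Kif1b among the transport genes and Kif2a and Kif9 among the others enter with 2 promoters each, and those of Kif1b, Kif2a and Kif9 overlap in sequence. The listed starts of Kif2c, Kif14, Kif3a, Kif26a and Kif27, and 1 of those of Kif1a, lie more than 1 kb inside the gene record. Among these internal promoters TTTGAA is held by those of Kif2c, Kif14, Kif27 and Kif1a, the last being the only transport match. Those of Kif3a and Kif26a hold no TTTGAA.

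CCNCNCCC showed the reverse. It was present in 4 of 11 mitotic promoters (Kif15, Kif18a, Kif20b and Kif23), 11 of 12 transport promoters and 6 of 12 others, against 57.1% of all promoters. CCNNGCCC was present in 4 of 11, 8 of 12 and 6 of 12, against 48.6%. The 2 patterns overlap in CCNCGCCC, which 31.9% of all promoters hold. Over the genome, promoters overlapped by a WT region held CCNCNCCC in 76.2% of cases, against 52.6% of the rest. Their median G and C content was also higher, 64.0% against 54.3%, and the part of base composition in that difference was not tested. Promoters of transport kinesins had a median of 68.2% G and C and mitotic ones 59.7%, and the part of base composition in the difference between the roles was not tested either. Among the 9 kinesin promoters overlapped by a WT region, 6 held CCNCNCCC, and the 3 without it were the mitotic promoters of Kif11, Kif22 and Kif4.

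**Figure D5:**
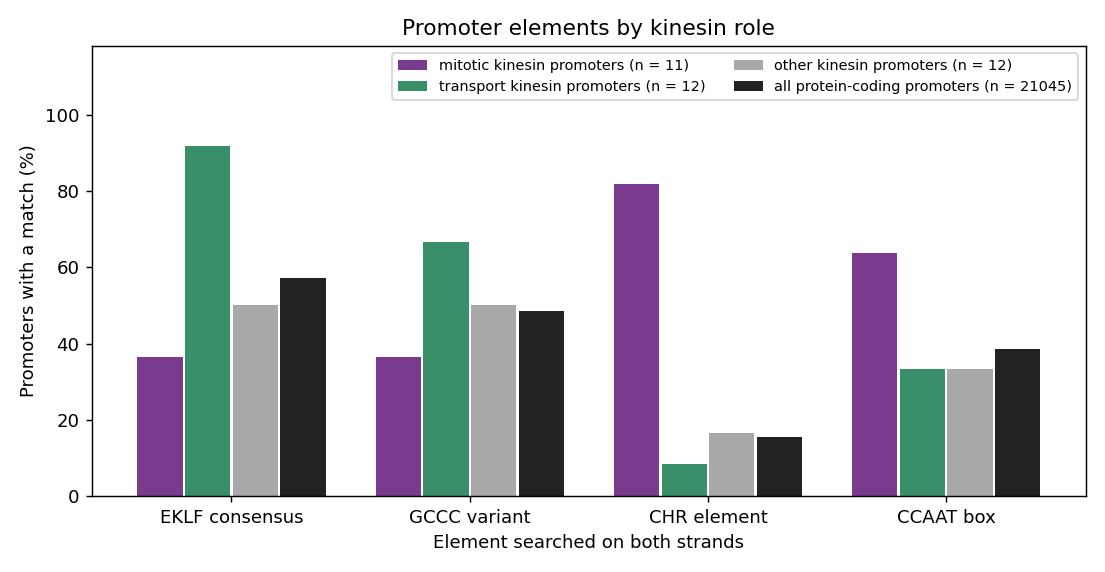
Percentage of promoters (vertical axis) with at least 1 match on either strand to CCNCNCCC (EKLF consensus), CCNNGCCC (GCCC variant), TTTGAA (CHR element) and CCAAT, for mitotic, transport and other kinesins and all protein-coding promoters. TTTGAA is found in 9 of 11 mitotic promoters and 1 of 12 transport promoters, and CCNCNCCC in 4 and 11.

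Genes that work with kinesins were examined from 4 lists. Of 10 spindle midzone partners, 6 had a WT and 7 a Nan/+ region, against 3.77 and 4.31 at the rates of genes of like length, with 2 in WT alone, Birc5 and Incenp, and 3 in Nan/+ alone, Aurkb, Cdca8 and Tpx2. All but Tpx2, a spindle assembly factor, belong to the chromosomal passenger complex, which Kif20a carries. Racgap1, the partner of Kif23 in centralspindlin, had 1 region in each list, and Prc1, which recruits Kif4 to the midzone, had 2 in each. Of 9 promoters of 7 of these genes, 7 held TTTGAA and 7 held CCNCNCCC. Of 10 kinesin subunits and adaptors 7 had a WT and 6 a Nan/+ region, against 3.73 and 4.4 by length, with 1 in WT alone, the light chain gene Klc4. The mitochondrial adaptor gene Trak2 had 3 WT and 8 Nan/+ regions, and 0 of 11 promoters of this list held TTTGAA, nor did any of 13 dynein promoters. Of 13 genes of cytoplasmic dynein, the motor that runs towards microtubule minus ends, 4 had a WT region and 10 a Nan/+ region, against 4.91 and 5.49 by length. None of the 13 had a region in WT alone (10.1% of all genes), and 6 had one in Nan/+ alone (14.1%), each with 1 or 2 regions. Pafah1b1, the dynein regulator Lis1, had 2 WT and 10 Nan/+ regions. Of 6 kinesin family genes with other symbols, 4 had a WT and 3 a Nan/+ region, against 2.38 and 2.68 by length. Kifc1, which encodes the mitotic minus-end kinesin, had 1 in WT alone, and Cenpe, which encodes the kinetochore kinesin, had 0 in both.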

How the data were processed

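Positions came from 1 deposited list of EKLF regions per genotype, each called by the authors with HOMER from 3 ChIP libraries against input. Per the file headers, the WT settings were size 125 and minDist 250, those of Nan/+ 175 and 300, and both lists used q 0.01, f 4, fdr 0.01 and log2fold 2. The build is mm10, and Bowtie2 2.1, SAMtools 1.1, bcl2fastq 2.17 and deepTools 3.5 stand in the submitters' processing notes. The score deposited by the authors is 1 for every region and went unused. CBP, H3K27ac, polymerase and ATAC libraries were not analysed here.

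Of 21900 protein-coding genes, 108 with positions below 3 Mb, taken as alternate loci, and 269 on Y or the mitochondrial chromosome were left out. Regions were shared when they overlapped by 1 bp. Length-matched shares are means over 10 strata of gene length. The code, in Python 3.11.15 with pandas 2.3.3, was tested on simulated regions. Members, role groups and lists were chosen with earlier results of these data known. Every member is accounted for, and those with regions are named by role. Alternatives covered the flanks, assignment, overlap and width. Without replicate values nothing was tested.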

Additional observations from a re-analysis of the deposited data

How the results depend on the processing

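Of 104 alternative values 83 lay within 1.5 times the reported one. Some of these could not differ, so the total is not a measure of robustness. WT counts are fixed where only the Nan/+ list was changed, and transport counts are fixed where Kif2a was moved. With flanks of 50 kb, 5 members had a region in Nan/+ alone (14.9% of all genes). Of transport members 11 then had a WT region, beside 50% of all genes. With gene bodies alone, 12 members had a WT region (18.1% of all genes) and 8 had regions in both lists (10.5%). Of mitotic members 2 had a WT region. These counts are fewer by construction because regions in the flanks are dropped. With Nan/+ regions above the minimum width, 12 members had a Nan/+ region (25.1% of all genes), namely 4 mitotic, 3 transport and 5 other. A region in WT alone was then found at 8 members (15.4%) and in Nan/+ alone at 1 (6.98%). Limiting both lists to such widths, chosen after seeing the data, gave the same member counts. The shares of all genes were then 14.5% in WT alone and 7.34% in Nan/+ alone. With equal list lengths by width, 6 members had a region in WT alone (13.7% of all genes) and 3 in Nan/+ alone (8.91%). Of transport members 5 then had a Nan/+ region. The order of WT alone and Nan/+ alone thus turned over, both for the members and for all genes. Within 1 kb of either gene end over all members, added after seeing the data, 7 members had a Nan/+ region (16.3% of all genes). Giving each region to its nearest gene left 15 members with a WT region (24.8% of all genes) and 21 with a Nan/+ region (29.4%). Kif4, Kif9, Kif15 and Kif24 then lost their WT regions. A reciprocal overlap of 50% left 4 shared regions in each list, beside 14.3% of all WT and 8.41% of all Nan/+ regions. Counting Kif2a as mitotic gave 7 and 8 of the mitotic genes. No paired analysis was possible because each list combines its replicates, so no replicate could be left out. No tags per region were used, so depth sets an unknown limit on weak regions.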
